A study of Mus musculus with 24 samples.

Results

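Male (M) and female (F) C57BL/6 mice were compared in the PDGFRb-positive cells of inguinal white adipose tissue that carry the label DPP4_neg. The comparison used 3 M_DPP4_neg and 3 F_DPP4_neg libraries of the 24 in the series, which otherwise holds inguinal DPP4_pos cells and the gonadal subpopulations APC and FIP of the same strain, also with 3 libraries per sex. All cells were sorted by flow cytometry, and the labels give no treatment, transgene, age or substrain. Nothing in them says that a group's 3 libraries are 3 animals, and the p-values therefore cover only library-to-library spread, possibly technical. Of the 27179 genes in the deposited table, 23975 were placed on autosomes, and the 12896 of these that reached 10 or more in 3 or more of the 6 libraries form the set described here. At the edge of this filter, Chac1 and Slc6a13 entered with a third-highest value of 10.1, and Maneal and Masp2 stayed outside with 9.91. Values are normalised counts, that is reads divided by 1 size factor per library, and are listed in the order of libraries 1, 2 and 3.

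In mouse subcutaneous fat, DPP4-positive cells of the reticular interstitium are regarded as multipotent progenitors. Cells without DPP4 hold committed preadipocytes, marked by ICAM1 and PPARG, and a stromal population marked by F3 (CD142). The inguinal fat pad of a female mouse also surrounds a mammary gland, whose epithelium is marked by EPCAM and keratins and whose stroma responds to estrogen and progesterone.

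The 3 M_DPP4_neg libraries held 15864391, 15929327 and 13055651 reads and the 3 F_DPP4_neg libraries 17014324, 17165535 and 15698973. The labels were checked with sex-linked genes. Xist, the RNA that coats the inactive X, had 0, 5.11 and 4.93 normalised counts in the M libraries, against 13802, 13433 and 16244 in the F libraries, and the Y-linked gene Ddx3y had 2278, 2220.1 and 2374 in M and 26.2, 40.2 and 51.2 in F. Pdgfrb, the gene of the sorted surface marker, had 3720.4, 4306 and 4213 normalised counts in the M libraries, against 3338, 3863 and 3920.5 in the F libraries, with overlapping groups (log2 fold change 0.14 ± 0.11 SE, adjusted p = 0.299). Libraries of a group correlated across genes with r between 0.983 and 0.990. In a chi-square test of reads over genes, M libraries 2 and 3 differed by 2.58 per degree of freedom, against 18.9 and 26.7 for M library 1 with them, so these 2 libraries were far closer to each other, though above sampling noise, and were counted as separate. The library M_DPP4_neg 2 had a count for 20103 genes, against 17686 and 17955 in the other M_DPP4_neg libraries. Of the 2261 genes that it alone detected within its group, 1959 had only 1 or 2 reads. M_DPP4_neg 1 stood apart by its ribosomal protein genes, whose summed level is given with that list.

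The size factors left the libraries with unequal totals, 16098279 to 16266879 normalised counts in M and 12962904 to 13517456 in F. Reads of the 10 top genes made up 19.1% to 19.5% of a library in M and 14.6% to 15.9% in F. Scaling every library to the same total instead moved the median log2 difference over all genes to -0.32, against -0.03 under the authors' size factors. Differences below are relative to the authors' scaling, and a list whose balance turns round under equal totals is named as such.

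Of the 12896 autosomal genes, 2975 (23.1%) were higher in M and 3216 (24.9%) were higher in F at an adjusted p under 0.05, so 48.0% were called (limma on log2(value + 1), Benjamini-Hochberg adjustment, n = 3 and 3). Genes higher in M made up 48.1% of all calls, and 23.2% under equal library totals, where 1717 were higher in M and 5681 in F. Past 2-fold, 959 genes (7.44%) were higher in M and 1267 (9.82%) higher in F. Past 8-fold the counts were 43 (0.333%) and 347 (2.69%), so the large differences lay mostly on the F side. For 7586 genes (58.8%) the 3 libraries of 1 sex all lay above the 3 of the other.

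**Figure D1:**
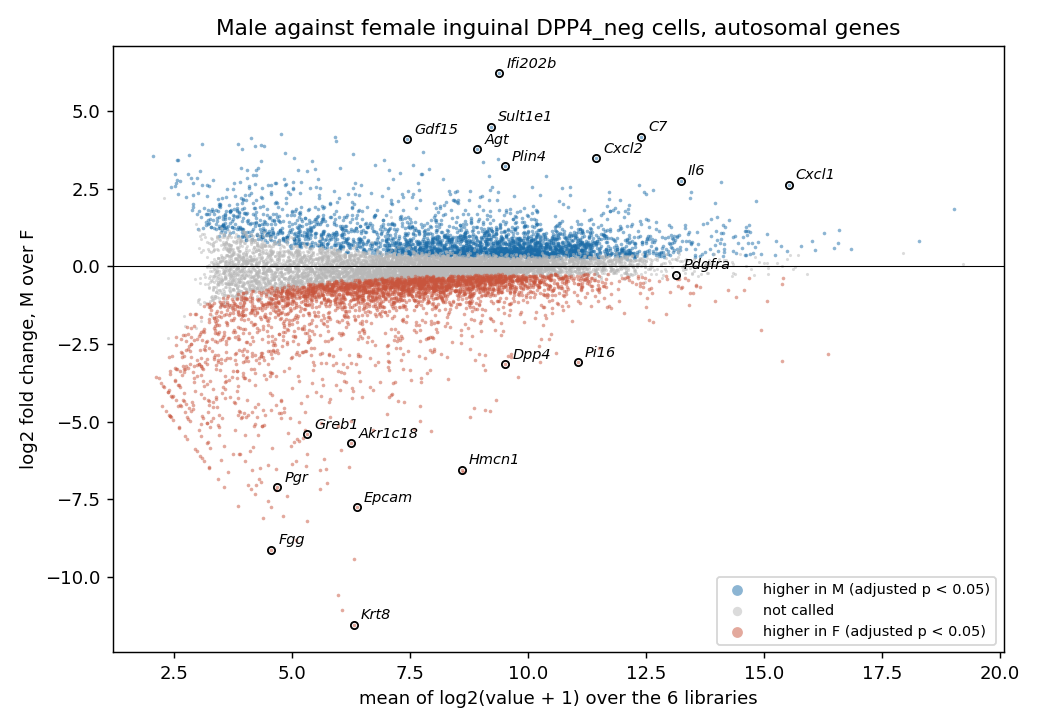
Each point is 1 of 12896 autosomal genes, placed by its mean log2(value + 1) over the 6 libraries and by its log2 fold change of M over F. Blue points are the 2975 genes called higher in M and red points the 3216 called higher in F, and the red points reach further from 0 than the blue ones.

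The steroid genes carried some of the largest differences in both directions. Sult1e1 (chromosome 5, 87575968 to 87591611, GRCm38.p6), the gene of the sulfotransferase that inactivates estrogens, had 3071, 2760.3 and 2645 normalised counts in the M libraries, against 118, 121 and 135 in the F libraries. All M libraries lay far above all F libraries (log2 fold change 4.50 ± 0.11 SE, adjusted p = 7.05e-09). Pgr, the progesterone receptor gene (chromosome 9, 8898900 to 8968611), had 0, 2.04 and 2.47 normalised counts in the M libraries, against 432, 324 and 194 in the F libraries. It was near 0 in every M library, and its F libraries fell in the order 1, 2, 3 (log2 fold change -7.10 ± 0.47 SE, adjusted p = 1.47e-06). Greb1, known as an estrogen receptor target in breast cells (chromosome 12, 16670615 to 16801394), had 2.03, 15.3 and 3.70 normalised counts in the M libraries, against 504, 156 and 218 in the F libraries, again without overlap (log2 fold change -5.40 ± 0.58 SE, adjusted p = 3.79e-05).

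Esr1, which encodes estrogen receptor alpha, went the other way, with 842, 1210.1 and 1408 normalised counts in the M libraries, against 746, 706 and 624 in the F libraries (log2 fold change 0.71 ± 0.17 SE, adjusted p = 0.00585). The groups did not overlap, and the M values spread more widely than the F values. The list of steroid receptors and their co-regulated genes had 3 of 12 tested members higher in M (Esr1, Ncoa3 and Nr3c1) and 2 higher in F (Pgr and Greb1), with a median log2 fold change of 0.09. The M count was 1 without M library 3. Under equal library totals the balance turned to 1 and 5, with a median of -0.20, so no direction is given for this list.

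Among steroid-metabolising enzymes 6 of 13 tested genes were higher in M and 3 higher in F (median 0.33, and 0.04 with 4 against 4 genes under equal totals). Akr1c18, which encodes the progesterone-inactivating 20-alpha-hydroxysteroid dehydrogenase, had 19.3, 7.15 and 6.17 normalised counts in the M libraries, against 1656, 446 and 218 in the F libraries. Its F values spread more than its M values but stayed above all of them (log2 fold change -5.69 ± 0.62 SE, adjusted p = 4.32e-05). Akr1c14, a 3-alpha-hydroxysteroid dehydrogenase gene, was likewise higher in F (-4.19 ± 0.42, adjusted p = 2.49e-05). Both lie in a family of similar genes, so the split of reads is uncertain. Hsd11b1, whose enzyme regenerates active glucocorticoid, was higher in M (0.91 ± 0.12, adjusted p = 0.000167).

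**Figure D2:**
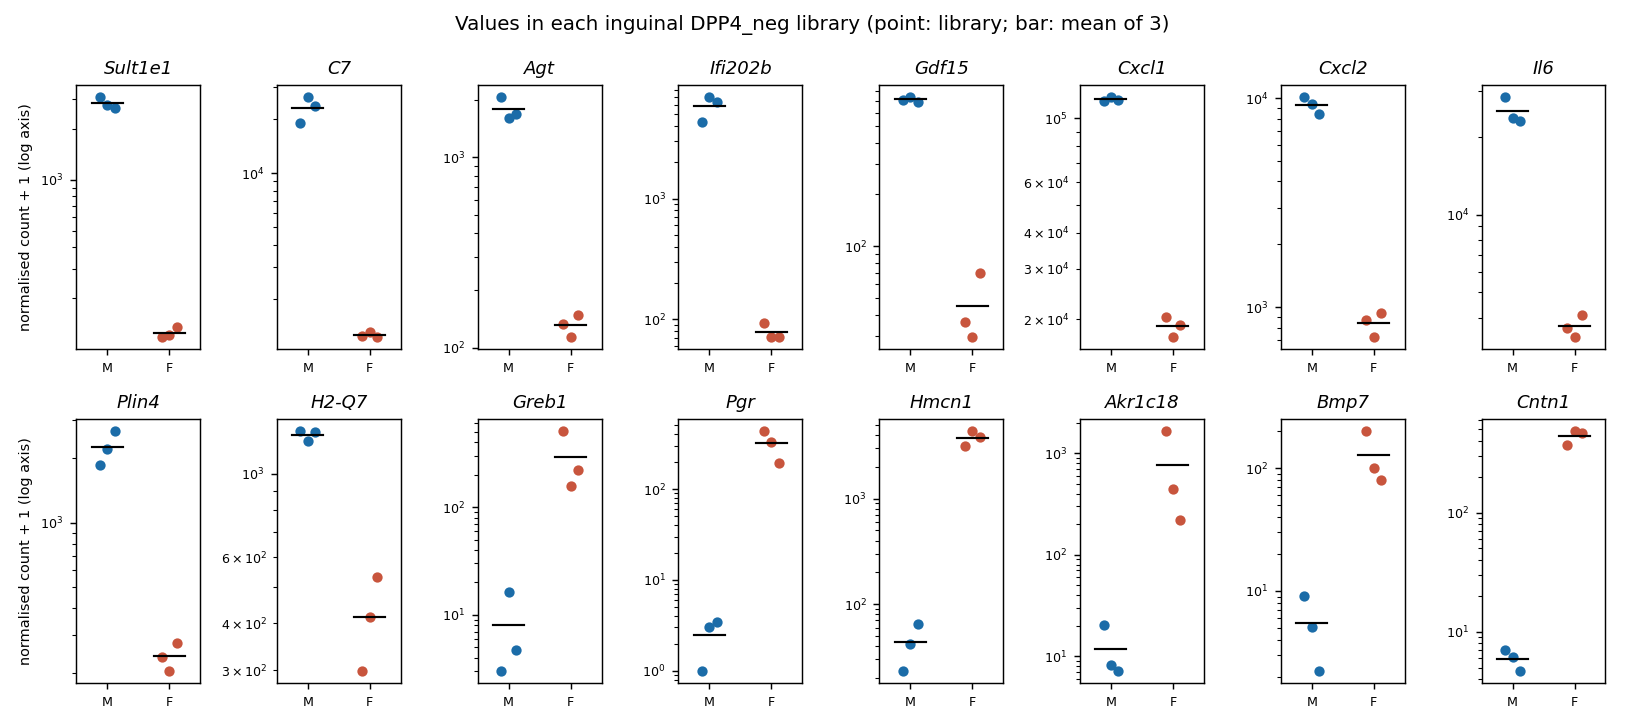
Points are single M (blue, left) and F (red, right) DPP4_neg libraries, bars the means of 3, and each panel has its own log axis of normalised count + 1. In none of the 16 genes shown did the groups overlap, which was a condition for choosing some of them and held for 58.8% of all genes tested. The F values of Akr1c18, Greb1 and Bmp7 spread more than the M values of Sult1e1 or Cxcl1. On the log axis Greb1 and Bmp7 spread still more in M, where their values were low.

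Inflammatory chemokine and cytokine genes were higher in M as a group. Of 24 tested, 20 were higher in M and 3 (Cx3cl1, Il34 and Il11) higher in F, against 23.1% and 24.9% of all genes, with a median log2 fold change of 1.13 and 0.84 under equal totals. Their summed level was 343238 to 385301 normalised counts in M and 87123 to 98135 in F. Cxcl1, a neutrophil attractant, had 114933, 118501 and 116110.2 normalised counts in the M libraries, against 20451, 17377 and 19055 in the F libraries (log2 fold change 2.62 ± 0.12 SE, adjusted p = 1.74e-07). Cxcl2, a second ligand of the same receptor, had 10129, 9423 and 8451 normalised counts in the M libraries, against 868, 720.5 and 938 in the F libraries (log2 fold change 3.47 ± 0.12 SE, adjusted p = 3.35e-08). In both genes the M libraries lay close together and far above the F libraries. Cxcl1, Ccl2 and Ccl7 were chosen after their values were seen.

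Il6, the interleukin-6 gene, had 28469.6, 23630.3 and 23109.8 normalised counts in the M libraries, against 3655, 3365 and 4101 in the F libraries. The M values were several times the F values in every pairing of libraries (log2 fold change 2.76 ± 0.12 SE, adjusted p = 1.25e-07). Lif, a cytokine gene of the same family, had a log2 fold change of 2.90 ± 0.15, and Cxcl5, another neutrophil attractant, of 3.45 ± 0.17. The monocyte attractant genes Ccl2 and Ccl7 followed with 2.10 ± 0.15 and 2.72 ± 0.17, so ligands for both neutrophils and monocytes were higher in M.

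The windows of 250 bases before the start sites of Cxcl1, Cxcl2 and Il6 are shown because these genes were higher in M together and each window holds GGGA and TTTCC with any 1 base between them, a form of the binding motif of NF-kB, a transcription factor known to drive them. The sequences are from RefSeq (GRCm38.p6), on the plus strand, at chr5:90890995-90891244 for Cxcl1, chr5:90903649-90903898 for Cxcl2 and chr5:30012864-30013113 for Il6. They run 5′ to 3′, with the match in capitals.
Cxcl1: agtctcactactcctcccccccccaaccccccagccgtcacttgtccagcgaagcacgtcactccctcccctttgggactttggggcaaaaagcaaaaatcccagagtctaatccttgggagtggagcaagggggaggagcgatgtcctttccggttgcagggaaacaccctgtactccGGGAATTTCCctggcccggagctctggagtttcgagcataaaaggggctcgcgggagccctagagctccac
Cxcl2: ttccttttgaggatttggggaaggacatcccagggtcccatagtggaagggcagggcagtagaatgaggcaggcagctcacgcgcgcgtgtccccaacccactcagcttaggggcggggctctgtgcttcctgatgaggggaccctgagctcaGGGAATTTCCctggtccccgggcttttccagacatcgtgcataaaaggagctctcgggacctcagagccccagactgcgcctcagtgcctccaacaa
Il6: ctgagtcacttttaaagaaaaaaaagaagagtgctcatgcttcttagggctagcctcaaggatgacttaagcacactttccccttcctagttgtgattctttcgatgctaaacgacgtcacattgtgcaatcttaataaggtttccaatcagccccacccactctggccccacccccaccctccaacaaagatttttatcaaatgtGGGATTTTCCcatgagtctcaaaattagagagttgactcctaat
The matches begin 71, 97 and 44 bases before the start site in Cxcl1, Cxcl2 and Il6. Both strands of 32851 such windows were searched, and 117 (0.356%) held the motif. The window of Lif held no match, and Cxcl5, Ccl2 and Ccl7 were not among the windows searched. A match is a string of letters and says nothing about binding in these cells. The estrogen response element, searched as GGTCA and TGACC with 3 bases between, was found on either strand in 0.0639% of the windows. It did not occur in the windows of Pgr, Greb1, Sult1e1, C7 or Agt, which says only that these letters are absent from these stretches.

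Complement and acute phase genes were more often higher in M than in F. C7, the gene of complement component 7 and part of the membrane attack complex (chromosome 15, 4987750 to 5063773), had 18961, 26431 and 23669.6 normalised counts in the M libraries, against 1248, 1309 and 1229 in the F libraries. Every M library was more than 10 times above every F library (log2 fold change 4.17 ± 0.12 SE, adjusted p = 2.44e-08). Of 16 tested complement genes, 8 were higher in M and 3, among them Masp1 and Cd55, higher in F, with a median of 0.49. Cfb and C2, which encode the proteases of the alternative and classical convertases, had log2 fold changes of 1.86 ± 0.12 and 1.77 ± 0.11. Of 12 tested acute phase and antimicrobial genes, 7 were higher in M and 1 (Serpina3g) higher in F, with a median of 0.78, and 2 higher in F without M library 1. One of the 7, Pglyrp1, a gene of neutrophil granules, averaged 26.2 ± 12.3 in M_DPP4_neg and 8.63 ± 5.91 in F_DPP4_neg (SD, n = 3) with overlapping groups, lowest in library 2 of each sex, and which cells make these transcripts was not tested. Saa3, the serum amyloid A gene of mouse fat and macrophages, had 1007, 600.5 and 592 normalised counts in the M libraries, against 77.1, 81.3 and 80.9 in the F libraries (log2 fold change 3.14 ± 0.19 SE, adjusted p = 9.03e-07). Steap4, a metalloreductase gene, had 2.20 ± 0.10.

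Antigen presentation genes were also higher in M. Of 15 tested genes of MHC class I presentation, 14 were higher in M and none higher in F by limma, edgeR or DESeq2 (also 0 at an unadjusted p under 0.05), with a median of 1.08. Nlrc5, the transactivator of class I genes, had 1141, 1505 and 1520.3 normalised counts in the M libraries, against 203, 253 and 299.7 in the F libraries (log2 fold change 2.46 ± 0.16 SE, adjusted p = 1.3e-06). The class I genes H2-Q4, H2-Q6 and H2-Q7 had log2 fold changes of 1.33 ± 0.10, 1.76 ± 0.16 and 1.65 ± 0.17. They share near-identical sequence, so the split of reads among them is uncertain. Of 22 tested interferon response genes, 14 were higher in M and 1 higher in F, with a median of 0.64. Rsad2, which encodes the antiviral protein viperin, had 2319, 2131 and 2046 normalised counts in the M libraries, against 460.0, 628 and 807 in the F libraries (log2 fold change 1.81 ± 0.17 SE, adjusted p = 1.67e-05), and the guanylate-binding protein gene Gbp2 had 1.34 ± 0.12.

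Ifi202b (chromosome 1, 173962569 to 173982844), an interferon-inducible gene of the PYHIN family, had the highest log2 fold change among the named autosomal genes, with 4327, 6925 and 6299.7 normalised counts in the M libraries, against 91.4, 70.4 and 70.2 in the F libraries (log2 fold change 6.21 ± 0.17 SE, adjusted p = 2.08e-08). Every F library was below 100, far under the M libraries. Near-identical copies of this gene exist, so its counts are uncertain, and the labels give no substrain. The family members Ifi203 and Ifi204, chosen after their values were seen, differed less, with 0.81 ± 0.10 and 0.73 ± 0.12. In the other populations Ifi202b averaged 5378 ± 2344 in M_DPP4_pos and 56.9 ± 9.08 in F_DPP4_pos (SD, n = 3), and 2662 ± 818 in M_APC and 79.7 ± 7.89 in F_APC.

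Other leading genes of the M side had varied roles. Gdf15, a stress-induced hormone gene of the TGF-beta family, had 713, 736 and 693 normalised counts in the M libraries, against 35.0, 28.6 and 68.5 in the F libraries (log2 fold change 4.09 ± 0.26 SE, adjusted p = 1.11e-06). Agt, which encodes angiotensinogen, the precursor of angiotensin, had 2071, 1614 and 1697 normalised counts in the M libraries, against 132, 113 and 148 in the F libraries (log2 fold change 3.77 ± 0.14 SE, adjusted p = 3.5e-08). In both genes the M libraries were tight and lay clear of F. Comp, a cartilage matrix protein gene, had 4.04 ± 0.19, the homeobox gene Dbx2 4.15 ± 0.23, and the serpin gene Serpina3m, one of a cluster of similar copies, 4.24 ± 0.37. Pde1b, a cyclic nucleotide phosphodiesterase gene, had 3.68 ± 0.14, Cox8b, a cytochrome oxidase subunit gene, 3.65 ± 0.32, Rasl12, a small GTPase gene, 3.61 ± 0.17, and Dok7, an adaptor gene, 3.48 ± 0.37. Hpgd, whose enzyme inactivates prostaglandins, had 1672, 1474 and 1579.5 in M and 219, 207 and 201 in F (log2 fold change 2.91 ± 0.10 SE, adjusted p = 3.35e-08), and Kcne4, a potassium channel subunit gene, 3.37 ± 0.11, both chosen after their values were seen.

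Genes of the preadipocyte state leaned to M. Of 20 committed preadipocyte genes, 10 were higher in M and none higher in F by limma, edgeR or DESeq2 (1 at an unadjusted p under 0.05), with a median of 0.39. Under equal totals the counts were 6 and 1, with a median of 0.10, and without M library 1 they were 12 and 1. Pparg, the master regulator of fat cell formation, had 393, 324 and 350.2 normalised counts in the M libraries, against 164, 147 and 213 in the F libraries (log2 fold change 1.03 ± 0.15 SE, adjusted p = 0.000336), and Icam1 31544, 33317 and 33274 normalised counts in the M libraries, against 11377, 11146 and 12777 in the F libraries (log2 fold change 1.48 ± 0.11 SE, adjusted p = 2.73e-06). Neither gene's groups overlapped. Plin2, a lipid droplet coat gene, and Cxcl14, a chemokine gene, had 1.88 ± 0.14 and 2.40 ± 0.10.

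F3-positive stromal markers showed 8 of 9 tested genes higher in M and 1, Igfbp3, higher in F, with a median of 1.26. F3, which encodes tissue factor, had 8137, 7513 and 7226 normalised counts in the M libraries, against 1228, 1682 and 1514 in the F libraries (log2 fold change 2.38 ± 0.12 SE, adjusted p = 2.98e-07). All M libraries lay several times above all F libraries. Gdf10, Clec11a and Meox1 had 1.43 ± 0.11, 1.86 ± 0.11 and 1.82 ± 0.18. Among 11 general markers of adipose progenitors, 3 (Ly6a, Col1a1 and Dcn) were higher in M and 4 (Mfap5, Thy1, Lum and Itgb1) higher in F, with a median of -0.22, turning to 2 and 6 (-0.51) under equal totals and to 1 and 7 (-0.62) under quantile normalisation. Pdgfra had 7816, 8558 and 8163 normalised counts in the M libraries, against 10588, 8909.9 and 10222 in the F libraries, a difference that missed the threshold (log2 fold change -0.27 ± 0.10 SE, adjusted p = 0.052) and passed it under equal totals (-0.56, adjusted p = 0.00104), under quantile normalisation (-0.62, adjusted p = 0.000661), with all 24 libraries (-0.27, adjusted p = 0.00406) and without F library 2 (-0.35, adjusted p = 0.0401).

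Adipogenic transcription factors had 7 of 18 genes higher in M and 3 higher in F (median 0.18, turning to 5 against 6 and -0.11 under equal totals). Stat5a and Stat5b, the transducers of growth hormone and prolactin signals, were both higher in M, at 1.74 ± 0.10 and 1.09 ± 0.09, while Gata3, a factor of preadipocytes and of mammary luminal cells, was higher in F at -5.14 ± 0.40. Gata3 had 96.1, 173 and 107 in the F libraries, ranked 2, 3, 1, as for Epcam below. Cholesterol synthesis genes had 14 of 22 higher in M and 2, among them Dhcr7, higher in F, with a median of 0.64. Sqle, the squalene epoxidase gene, had 1842, 2030.1 and 1933 normalised counts in the M libraries, against 694, 775 and 597 in the F libraries (log2 fold change 1.50 ± 0.11 SE, adjusted p = 3.25e-06), and Msmo1 and Sc5d had 1.51 ± 0.14 and 1.04 ± 0.10. Lipid handling genes had 6 of 23 higher in M and 6 higher in F with a median of 0.00, turning to 2 and 9 with -0.28 under equal totals.

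The transcript of the gate's marker differed between the sexes. Dpp4 (chromosome 2, 62330073 to 62412315) had 243, 235 and 258 normalised counts in the M libraries, against 4213, 2124 and 1150.2 in the F libraries. The M libraries were alike, whereas the F libraries ranged several-fold and all lay above M (log2 fold change -3.15 ± 0.35 SE, adjusted p = 4.51e-05). Pi16, another marker of interstitial progenitors, had 815, 664 and 700.4 normalised counts in the M libraries, against 11178, 6285 and 3359.8 in the F libraries, with the same order of F libraries (log2 fold change -3.09 ± 0.33 SE, adjusted p = 3.33e-05). Of 19 tested interstitial progenitor genes, 2 (Ly6c1 and Stmn4) were higher in M and 16 higher in F, with a median of -1.56. Both M-higher calls ended under equal totals, where 17 were higher in F, and without M library 1, F library 2 or F library 3. Without M library 2 or M library 3 the count higher in M was 1.

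Summed over the interstitial list, the level was 49634, 55851 and 52889 in M_DPP4_neg and 138409, 85044 and 74255 in F_DPP4_neg, against 285445 to 305438 in M_DPP4_pos and 311447 to 316826 in F_DPP4_pos. In 17 of the 19 genes (89.5%), Dpp4 itself among them, the F libraries fell in the order of Dpp4, highest in library 1 and lowest in library 3. The same held for 19.3% of all genes tested. In bulk samples fewer cells of a type and less RNA per cell cannot be told apart. How far DPP4-positive cells in the F_DPP4_neg libraries take part in any result was not tested. Bmp7, a list member and BMP ligand gene, had 8.12, 4.08 and 1.23 normalised counts in the M libraries, against 199, 99.8 and 78.4 in the F libraries and shows the same order (log2 fold change -4.64 ± 0.50 SE, adjusted p = 3.95e-05), as does Akr1c18 above.

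Epithelial genes mark other cells than the sorted progenitors and had some of the largest differences. Of 26 tested luminal epithelial genes, all 26 were higher in F, with a median of -6.52. Epcam (chromosome 17, 87635979 to 87651127) had 5.07, 5.11 and 3.70 normalised counts in the M libraries, against 803, 1913 and 1149 in the F libraries (log2 fold change -7.76 ± 0.28 SE, adjusted p = 3.5e-08). Krt8, a luminal keratin gene, had 0, 2.04 and 0 in M and 2851, 6780.1 and 4071 in F, from 2 reads in all M libraries together, so that F exceeded M by a ratio of 6374 (exact binomial 95% interval 1764 to 52640, counting error only). Summed over the list, the level was 182 to 217 in M_DPP4_neg and 14654 to 35792 in F_DPP4_neg, against 172 to 204 in M_DPP4_pos and 872 to 1337 in F_DPP4_pos. Basal epithelial genes followed with 10 of 11 higher in F (median -3.17) and none higher in M, or 1 without F library 3, and Krt17, with 0 reads in M, was at least 26.8-fold lower in M (against a floor of 3 reads over the group).

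The F libraries ranked 2, 3, 1 for Epcam. Of the 26 luminal genes, 22 (84.6%), Epcam itself among them, kept that order, as did 17.6% of all genes tested. Of the 347 genes past 8-fold higher in F, 207 (59.7%) had the order of Epcam, and 223 (64.3%) had an F_DPP4_pos mean more than 10 times below the F_DPP4_neg mean, which 3.3% of all genes had. The part of epithelial cells in any difference was not tested.

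Dmbt1 and the fibrinogen genes led that side outside the epithelial lists. Dmbt1, which encodes a mucosal scavenger receptor protein, had 0, 3.06 and 0 normalised counts in the M libraries, against 1545, 4600.0 and 2073 in the F libraries (log2 fold change -10.59 ± 0.53 SE, adjusted p = 2.65e-07). Fgg, a fibrinogen chain gene, had no reads in M and 288, 874 and 668 in F, and was at least 566-fold lower in M. Fgb, another fibrinogen chain gene, had 1 read in M and 145, 540.2 and 509 in F. Wfdc2, Clca3a2, Fcgbp, Ido1 and Rasef had log2 fold changes of -7.74 to -7.02, and each, like Dmbt1, was highest in F library 2. Ocln, a tight junction gene, and Cxcl15 had no reads in M, and were at least 136-fold and 108-fold lower there.

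Hmcn1 and Cntn1 had a narrower range among F libraries than Epcam. Hmcn1, which encodes the matrix protein hemicentin, had 22.3, 40.8 and 64.1 normalised counts in the M libraries, against 3125, 4348 and 3809 in the F libraries (log2 fold change -6.55 ± 0.30 SE, adjusted p = 1.51e-07). Cntn1, the gene of the neuronal adhesion molecule contactin, had 6.09, 5.11 and 3.70 normalised counts in the M libraries, against 370.2, 481 and 465 in the F libraries (log2 fold change -6.21 ± 0.22 SE, adjusted p = 3.35e-08). Both kept the library order of Epcam. Hmcn1 averaged 59.5 ± 14.3 in M_DPP4_pos and 415 ± 59.6 in F_DPP4_pos (SD, n = 3), and Cntn1 7.51 ± 1.65 in M_DPP4_pos and 32.5 ± 6.34 in F_DPP4_pos. Hmcn1, Map2 (-6.47 ± 0.41), Gria1 (-6.25 ± 0.28) and Mrgprg (-6.56 ± 0.23) were chosen after their values were seen. Col13a1, a transmembrane collagen gene, had -7.38 ± 0.53, and the neurexophilin gene Nxph3, in the order of Epcam, had 2 reads in M and 144, 260.0 and 238 in F.

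**Figure D3:**
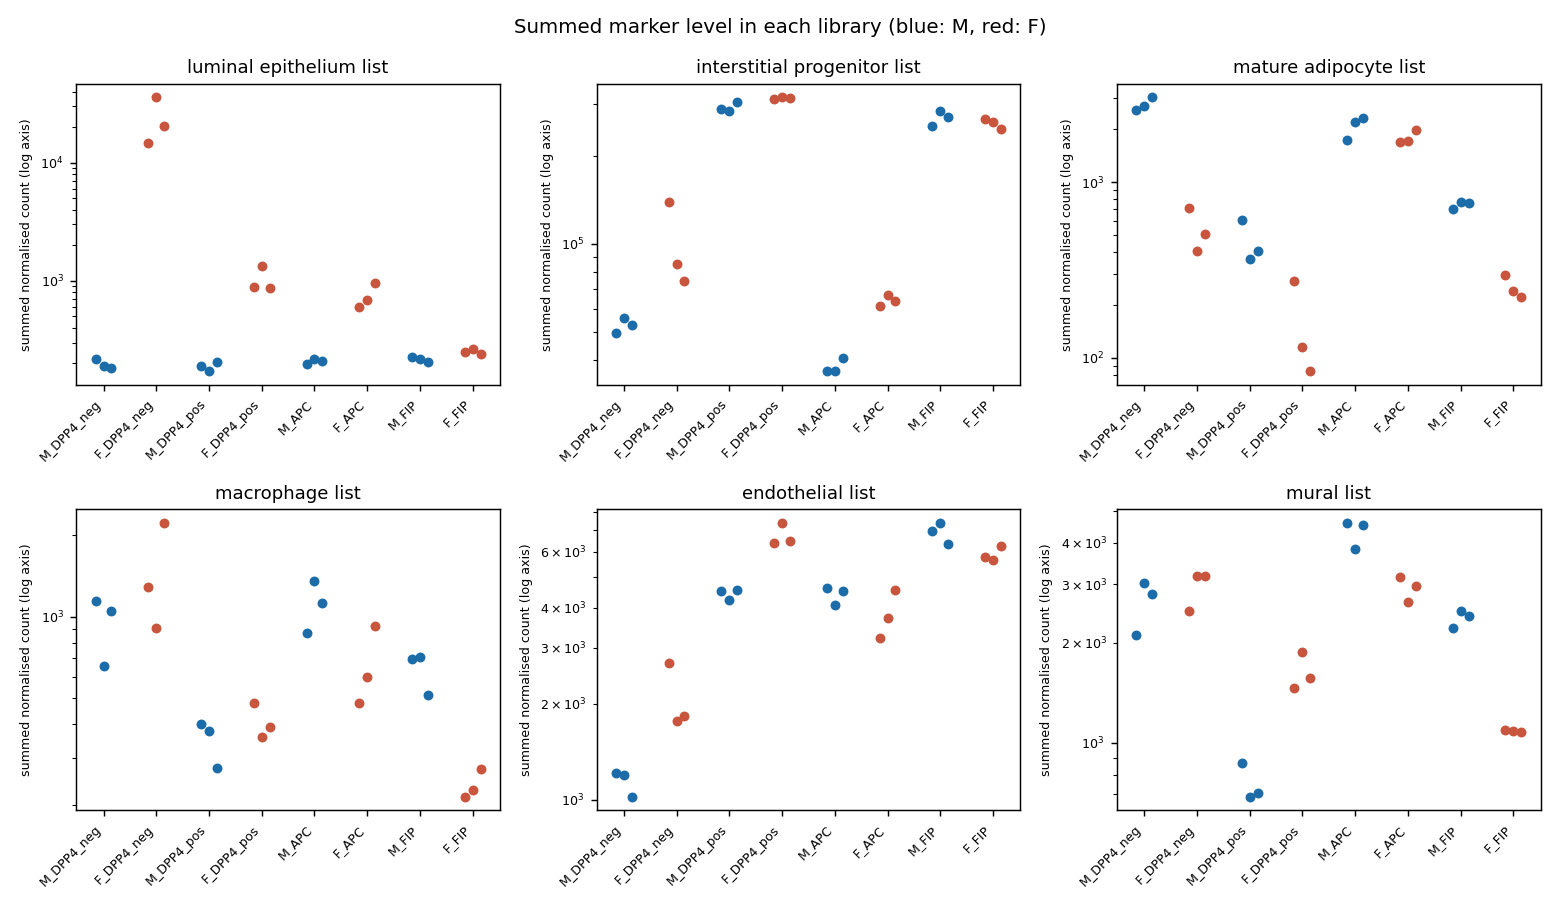
Points are libraries of the 8 groups (blue M, red F, M left of F in each pair), and each panel gives the summed normalised count of a marker list on a log axis. The luminal epithelium sum of F_DPP4_neg (14654 to 35792) stands far above those of the other 7 groups, and the interstitial progenitor sum of F_DPP4_neg library 1 lies above those of libraries 2 and 3.

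Other cell types were traced by their markers. Macrophage genes had none of 13 higher in M and 5 (Mrc1, C1qb, C1qa, C1qc and Adgre1) higher in F by limma (none higher in M at an unadjusted p under 0.05, nor by edgeR or DESeq2), with a median of -0.18 that turned to 0.10 under quantile normalisation, and a summed level of 656 to 1145 in M and 907 to 2220 in F. Endothelial genes had none of 10 higher in M by limma, edgeR or DESeq2 (0 at an unadjusted p under 0.05) and 6 higher in F, with a median of -0.71 and sums of 1022 to 1210 in M and 1773 to 2684 in F. Tek, a receptor gene and the main part of this sum, had 618, 709 and 695 in M and 1707, 1045 and 968 in F, and Kdr had 30.4, 32.7 and 18.5 in M and 369, 199.7 and 187 in F. Both fell in the order of Dpp4 in F and averaged 4920.0 (Tek) and 1509 (Kdr) in F_DPP4_pos, so they go with the interstitial progenitor genes in library order. Cdh5 and Erg, also called higher in F, did not. Cdh5 had 140, 145 and 154 in F_DPP4_neg and 86.0, 85.8 and 54.5 in F_DPP4_pos. Erg had 21.5, 23.2 and 23.1 in F_DPP4_neg and 16.0, 8.78 and 3.30 in F_DPP4_pos. Without M library 3 the endothelial counts were 1 higher in M and 4 higher in F. Mural cell genes had 2 of 10 higher in M (Des and Abcc9) and 4 higher in F, among them Acta2 (-2.36 ± 0.32), with a median of -0.61. Schwann cell genes had 1 of 6 higher in M and 4 higher in F, with a median of -1.37.

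Of 10 mesothelial genes only 3 were tested, since the others were too low, and 2 of these (Krt19, also a luminal keratin, and Wt1) were higher in F. Lymphocyte genes had 3 of 9 tested, of which 2, among them Cd79a, were higher in M, with sums of 70.5 to 147 in M and 31.7 to 47.1 in F. Neutrophil genes, chosen after their values were seen, were uneven. S100a8 had 687, 184 and 506 normalised counts in the M libraries, against 31.8, 10.1 and 142 in the F libraries (log2 fold change 3.43 ± 0.76 SE, adjusted p = 0.00397), lowest in library 2 of each sex. The granule gene Ngp had 604, 213 and 660 in M and 54.8, 12.4 and 226 in F, with overlapping groups. Ltf had 294, 108 and 418 in M and 180.3, 409 and 337 in F, also with overlapping groups. Its F libraries ranked 2, 3, 1, as for Epcam and unlike S100a8, and which cells make it was not tested. The part of these cells in any difference was not tested.

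Mature adipocyte genes were higher in M, with 6 of 9 tested called and none higher in F by limma, edgeR or DESeq2 (0 at an unadjusted p under 0.05), a median of 1.05, and sums of 2566 to 3044 in M and 407 to 717 in F. The count was 3 without M_DPP4_neg library 1, and 3 under equal totals. Most of each M sum, and of the gap between the sums, came from Plin4. Plin4, a lipid droplet coat gene, had 1854, 2203 and 2663 normalised counts in the M libraries, against 235, 204 and 274 in the F libraries (log2 fold change 3.23 ± 0.15 SE, adjusted p = 1.74e-07), clear of overlap. Lep, the leptin gene, had 15.2, 10.2 and 12.3 normalised counts in the M libraries, against 1.59, 3.10 and 0.826 in the F libraries (log2 fold change 2.32 ± 0.51 SE, adjusted p = 0.00363), so it was low in both sexes.

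**Figure D4:**
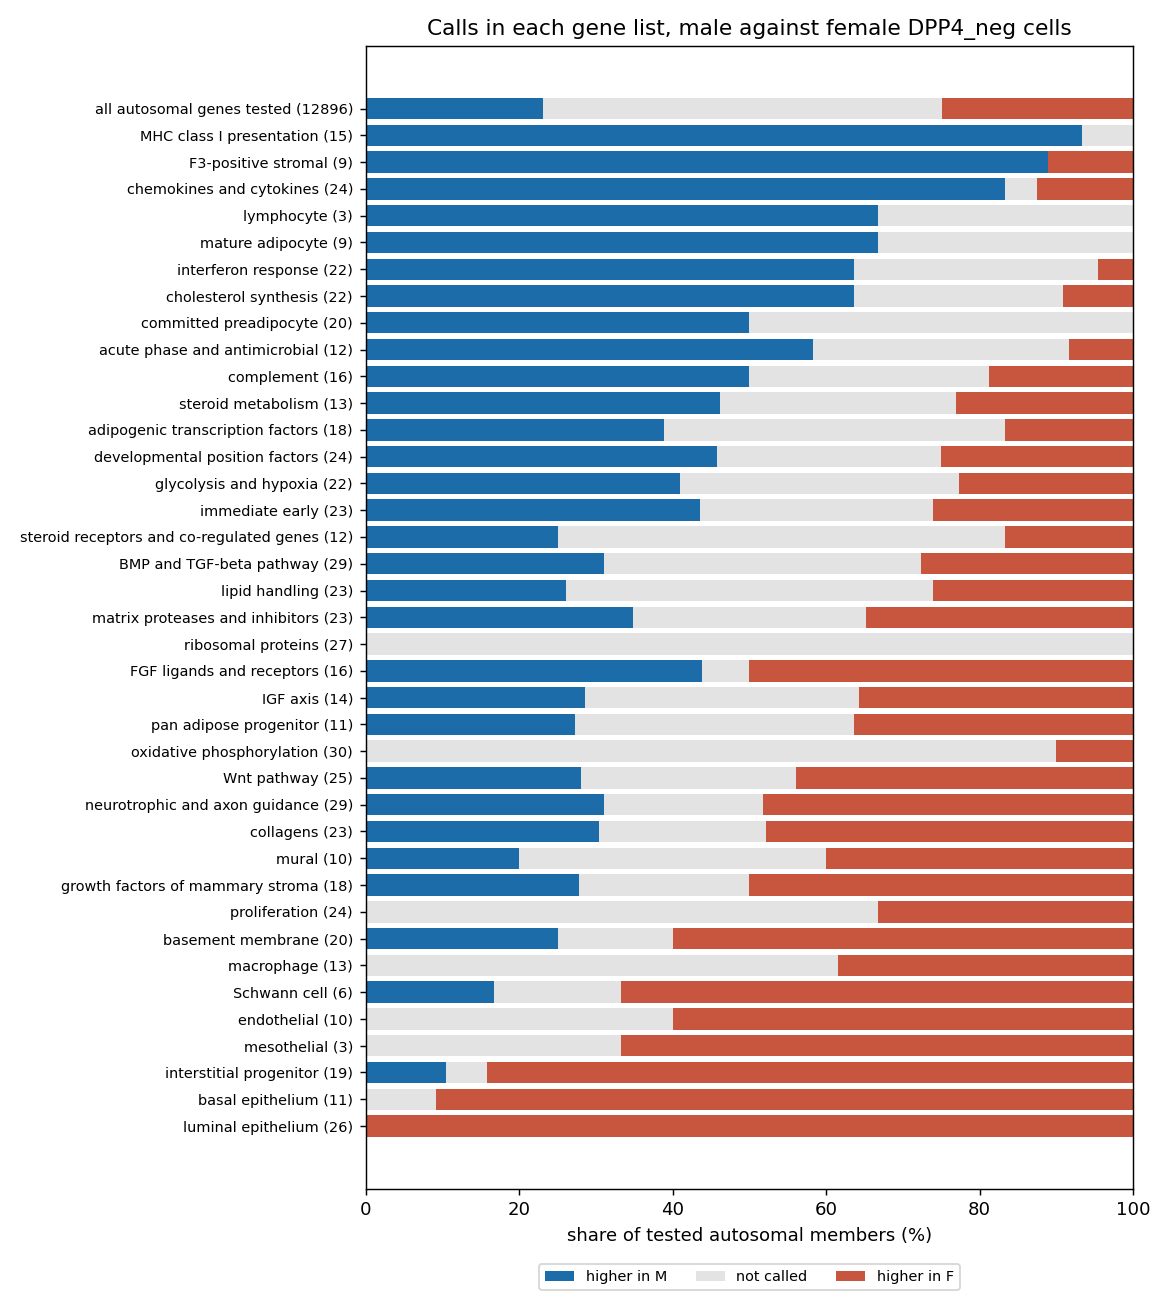
Bars give the share of tested autosomal members of each list (number in brackets) that was higher in M (blue), not called (grey) or higher in F (red), with all 12896 genes on top. MHC class I, F3-positive stromal and chemokine lists are mostly blue, the epithelial and interstitial progenitor lists mostly red.

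Matrix genes were called in both directions. Of 23 tested collagen genes, 7 were higher in M and 11 higher in F, with a median of 0.08 that turned to -0.21 under equal totals and -0.54 under quantile normalisation, so count and median differ in sign. Without M library 2 or M library 3 the M count was 4. Col1a1, a fibrillar collagen gene chosen after its values were seen, had 400317, 449714 and 413129 normalised counts in the M libraries, against 230642, 213032 and 276159 in the F libraries (log2 fold change 0.82 ± 0.19 SE, adjusted p = 0.00491). That call ended under quantile normalisation (0.03, adjusted p = 0.91) and without the filter on low values (adjusted p = 0.0624). Col12a1, a fibril-associated collagen gene, had 534, 752 and 757 normalised counts in the M libraries, against 2619, 3379 and 3079 in the F libraries (log2 fold change -2.16 ± 0.15 SE, adjusted p = 1.87e-06), and Col11a1, Col7a1 and Col6a5 were also higher in F, at -2.33 ± 0.35, -2.03 ± 0.27 and -1.68 ± 0.37. Of these, only Col12a1 ranked the F libraries in the order of Epcam.

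Basement membrane genes had 5 of 20 higher in M and 12 higher in F, with a median of -0.68. Frem1, which encodes a linker of epithelial basement membranes, had 85.2, 142 and 125 normalised counts in the M libraries, against 2093, 3456 and 3521 in the F libraries (log2 fold change -4.67 ± 0.22 SE, adjusted p = 2.05e-07). Lama5, a laminin gene also made by epithelia, and Egflam were higher in F at -3.64 ± 0.25 and -2.86 ± 0.18, both in the order of Epcam. Smoc2, a secreted calcium-binding matrix protein gene chosen after its values were seen, went the other way, with 12323, 13923 and 12655 normalised counts in the M libraries, against 1935, 2842 and 1669.6 in the F libraries (log2 fold change 2.63 ± 0.17 SE, adjusted p = 1.23e-06). Matrix proteases and their inhibitors had 8 of 23 genes higher in each sex and a median of -0.05, turning to 4 in M and 9 in F with -0.34 under equal totals. Without F library 2 the counts were 5 and 9. Adamts12, a metalloprotease gene, had 2099.7, 4079.7 and 4255 in M and 9961, 11480.0 and 11751 in F (log2 fold change -1.73 ± 0.23 SE, adjusted p = 0.000144).

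Wnt pathway genes had 7 of 25 higher in M and 11 higher in F, with a median of -0.34, and 8 in each sex under quantile normalisation. Rspo2, a Wnt-enhancing ligand gene, was higher in M in all 3 libraries (log2 fold change 3.87 ± 0.50 SE, adjusted p = 0.000138). Wnt10b, which restrains adipogenesis, had 22.3, 29.6 and 28.4 normalised counts in the M libraries, against 455, 169 and 98.3 in the F libraries (log2 fold change -2.84 ± 0.43 SE, adjusted p = 0.000399), in the order of Dpp4 in F. Wnt4, a target of progesterone in the mammary gland, had 15.2, 15.3 and 21.0 in M and 77.1, 246 and 108 in F (log2 fold change -2.83 ± 0.36 SE, adjusted p = 0.000128), in the order of Epcam.

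In the BMP and TGF-beta pathway 9 of 29 genes were higher in M and 8 higher in F, a balance that turned to 7 and 10 under equal totals (median 0.17 and -0.11). Bmp2, a ligand gene, had 1244, 1278 and 1239 in M and 481, 365 and 251 in F (log2 fold change 1.82 ± 0.19 SE, adjusted p = 3.23e-05), while the ligand genes Bmp6 and Inhbb were higher in F at -3.28 ± 0.36 and -2.81 ± 0.19. In F, Bmp6 fell in the order of Dpp4 and Inhbb in that of Epcam. FGF ligands and receptors had 7 of 16 higher in M and 8 higher in F, with a median of -0.64. Fgf7, the keratinocyte growth factor gene, had 1489.8, 1368 and 1417 normalised counts in the M libraries, against 473, 329.7 and 506 in the F libraries (log2 fold change 1.73 ± 0.15 SE, adjusted p = 9.04e-06), and Etv4, a transcriptional target of FGF signals, was higher in F at -2.94 ± 0.29.

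The IGF axis had 4 of 14 genes higher in M and 5 higher in F (median -0.07), and the M count was 2 without library 2 or library 3 of M or of F, and under equal totals or quantile normalisation. Igfbp3, an IGF carrier gene, had 2397, 1987 and 2128 normalised counts in the M libraries, against 5949, 5031 and 4889 in the F libraries (log2 fold change -1.28 ± 0.11 SE, adjusted p = 9.5e-06). Growth factors of the mammary stroma and epithelium had 5 of 18 higher in M and 9 higher in F, with a median of -0.59. Areg, the gene of amphiregulin, the estrogen-induced growth factor of mammary epithelium, had 4.06, 5.11 and 2.47 normalised counts in the M libraries, against 377, 1140.0 and 500.4 in the F libraries (log2 fold change -6.98 ± 0.37 SE, adjusted p = 3.89e-07), in the order of Epcam. Ptn, the pleiotrophin gene, had 109.6, 63.3 and 75.2 normalised counts in the M libraries, against 1465, 3178 and 2692 in the F libraries (log2 fold change -4.83 ± 0.27 SE, adjusted p = 5.51e-07), in that order as well. Btc, another ligand gene of the EGF receptor, was higher in M (2.25 ± 0.22).

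Neurotrophic and axon guidance genes had 9 of 29 higher in M and 14 higher in F, with a median of -0.56. Bdnf, a neurotrophin gene, had 3.04, 4.08 and 4.93 in M and 54.0, 81.3 and 74.3 in F (log2 fold change -3.82 ± 0.30 SE, adjusted p = 5.11e-06). Sema3g and Robo2, genes of an axon guidance ligand and a receptor, were higher in F at -5.26 ± 0.32 and -5.01 ± 0.31. Bdnf, Sema3g and Robo2 all ranked the F libraries in the order of Epcam.

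Developmental position factors had 11 of 24 genes higher in M and 6 higher in F (median 0.35, with 8 against 8 and 0.08 under equal totals). Tbx15, a T-box factor gene of subcutaneous fat, had 2794, 2620.4 and 2536 normalised counts in the M libraries, against 1066, 966 and 1013 in the F libraries (log2 fold change 1.38 ± 0.09 SE, adjusted p = 1.53e-06). Irx3 and Irx5, neighbouring homeobox genes, were higher in F at -2.12 ± 0.23 and -1.81 ± 0.22, both in the order of Epcam.

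The housekeeping lists had few calls under the authors' scaling. Of 27 ribosomal protein genes none was called by limma, 1 had an unadjusted p under 0.05, and edgeR and DESeq2 called 1 and 3 higher in M. Limma called 2 higher in M without M library 2. Their median of 0.16 turned to -0.13 under equal totals and to -0.11 under quantile normalisation, each with 1 gene called higher in F and 0 in M. Their summed level was 179278, 118044 and 126203 in M and 127668, 124575 and 118134 in F, so M library 1 stood above the other 5. Of 30 oxidative phosphorylation genes, 3 (Sdha, Ndufa8 and Uqcrc2) were higher in F and none higher in M, where 1 had an unadjusted p under 0.05 and edgeR and DESeq2 called 1 and 2. Without M library 1, 14 were higher in F, and without M library 3 or F library 2, 1 was. Without M library 2 the counts were 2 higher in M and 1 higher in F. Under equal totals 14 were also higher in F.

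Proliferation genes had none of 24 higher in M by limma, edgeR or DESeq2 (0 at an unadjusted p under 0.05) and 8 higher in F, with a median of -0.52, and the count higher in F was 3 without F library 3 and 5 without M library 2. It was 14 under equal totals (median -0.79) and 4 under quantile normalisation (-0.27). Cenpf, a kinetochore gene, had 11.2, 7.15 and 18.5 in M and 35.0, 33.3 and 44.6 in F (log2 fold change -1.62 ± 0.34 SE, adjusted p = 0.00306). Glycolysis and hypoxia genes had 9 of 22 higher in M and 5 higher in F, turning to 4 and 10 under equal totals (median 0.10 and -0.18), with 3 in F without M library 2 or 3 or F library 2 or 3. Immediate early and heat shock genes, which respond to tissue dissociation, had 10 of 23 higher in M and 6 higher in F, turning to 8 and 12 under equal totals, with medians of -0.22 and -0.51. Here the median and the count differ in sign under the authors' scaling. Hspa1a, a heat shock gene with the near-identical copy Hspa1b and therefore uncertain, had 6271, 5410.3 and 5551 in M and 2766, 1814 and 3294 in F (log2 fold change 1.17 ± 0.18 SE, adjusted p = 0.000485), and Egr2, an early response factor gene, 459.7, 435 and 459.9 in M and 1176, 1412 and 1405 in F (log2 fold change -1.55 ± 0.11 SE, adjusted p = 1.71e-06).

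The same M and F contrast was set beside that of 2 other populations, which use other libraries. Of 13236 autosomal genes tested with inguinal DPP4_pos cells, the M minus F difference of DPP4_neg lay above that of DPP4_pos for 1301 (9.83%) and below it for 1865 (14.1%), 23.9% in all. Against gonadal APC it lay above for 2392 (17.8%) and below for 2652 (19.7%) of 13443 genes, 37.5% in all. Under equal library totals these splits were 959 above and 2940 below DPP4_pos, and 1209 above and 6061 below APC, with medians over all genes of -0.18 and -0.445. Of the genes tested in both populations and higher in M in DPP4_neg, 1949 were also higher in M in DPP4_pos, 69.7% of the DPP4_neg list and 51.9% of the DPP4_pos list, where 31.4% of all genes tested in DPP4_pos were higher in M and 27.7% higher in F. On the F side 1742 were shared, 62.3% and 52.9% of the lists, and 400 genes were called in opposite directions. With gonadal APC 1333 genes were shared on the M side (47.4% and 44.6% of the lists) and 1121 on the F side (39.4% and 38.2%), with 814 in opposite directions, where 24.7% of genes tested in APC were higher in M and 24.1% higher in F.

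Sult1e1 and C7 differed by sex in all 3 populations. Sult1e1 had M over F log2 fold changes of 4.36 in DPP4_pos and 5.29 in APC, and C7 of 4.47 and 4.34. The differences between DPP4_neg and DPP4_pos missed the threshold for both (0.14 ± 0.20 SE, adjusted p = 0.668 for Sult1e1 and -0.29 ± 0.19 SE, adjusted p = 0.298 for C7). Pgr in DPP4_pos likewise had -7.30 and a difference of 0.20 ± 0.60 SE, adjusted p = 0.849. Esr1 was lower in M in DPP4_pos (-0.47) and APC (-1.33), opposite to DPP4_neg, with a difference of 1.18 ± 0.22 SE, adjusted p = 0.00106 against DPP4_pos.

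The chemokine genes differed from gonadal APC. Cxcl1 had 2.59 in DPP4_pos and 0.51 in APC, and Il6 3.45 and 0.14. The DPP4_neg difference exceeded that of APC by 2.11 ± 0.15 SE, adjusted p = 2.22e-08 for Cxcl1 and by 2.61 ± 0.14 SE, adjusted p = 1.4e-09 for Il6. Over the whole list, 17 of 24 tested genes lay above APC and 3 below it, or 15 and 3 under equal totals. Within DPP4_pos under the authors' scaling 16 of 24 were higher in M and 5 higher in F. Against DPP4_pos 8 lay above and 7 below. The MHC class I list had 14 of 15 above APC, or 13 under equal totals, and within APC under the authors' scaling 2 were higher in M and 11 higher in F. Within DPP4_pos 12 of 15 were higher in M and 0 higher in F, and 7 lay above DPP4_pos. Interferon response genes had 19 of 22 above APC, or 18 above and 1 below under equal totals. Within APC, under the authors' scaling, 1 of these genes was higher in M and 21 were higher in F. Within DPP4_pos 5 of 22 were higher in M and 4 higher in F, and 9 lay above DPP4_pos. Of 27 ribosomal genes all 27 lay above APC, or 26 under equal totals, and within APC under the authors' scaling all 27 were higher in F.

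Other genes set DPP4_neg apart from DPP4_pos. Dpp4 had -0.29 in DPP4_pos, and the difference of DPP4_neg from that was -2.86 ± 0.41 SE, adjusted p = 0.000132. Bmp7 had 0.06 there, with a difference of -4.70 ± 0.54 SE, adjusted p = 2.19e-05. Plin4, Smoc2, Pde1b and Gdf15 lay above DPP4_pos by 2.08, 2.01, 3.61 and 2.05 on the log2 scale. Cxcl5 lay below it, with a difference of -1.90 ± 0.22 SE, adjusted p = 2.59e-05. Cntn1 had a larger sex difference than in DPP4_pos (-4.23 ± 0.34 SE, adjusted p = 8.85e-07) and a smaller one than in APC (1.04 ± 0.28 SE, adjusted p = 0.00804).

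**Figure D5:**
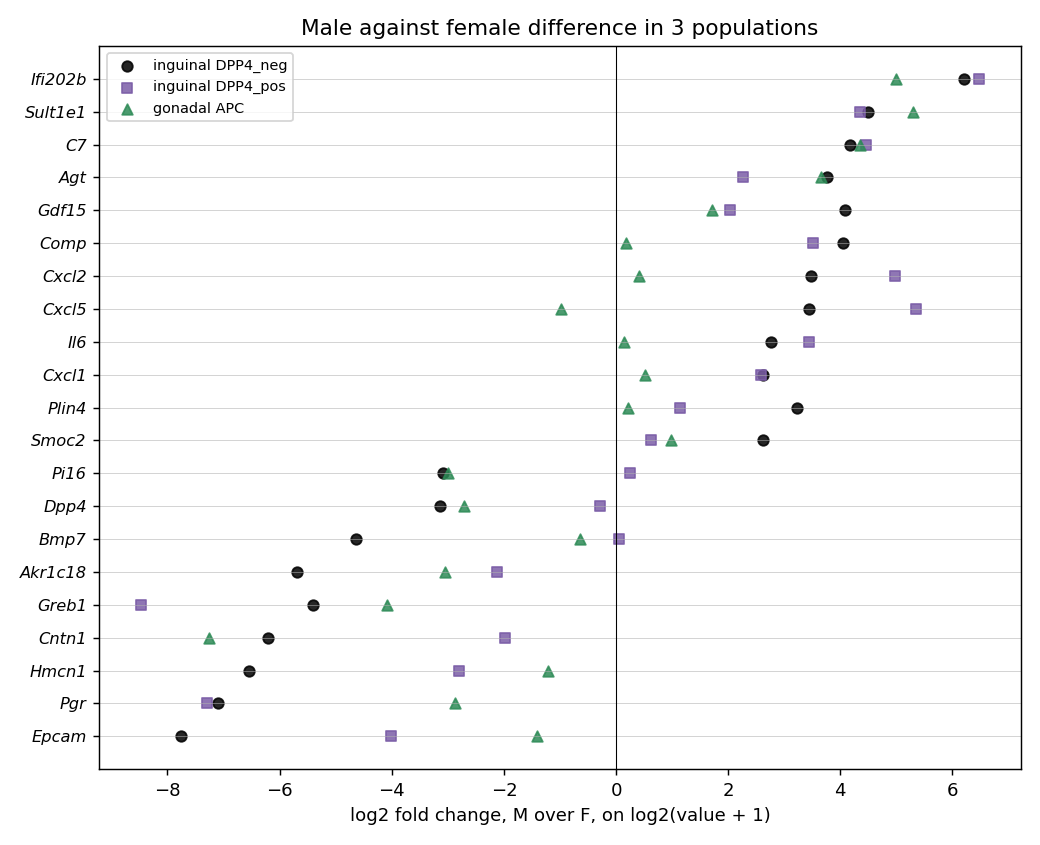
Points give the log2 fold change of M over F in inguinal DPP4_neg (black circles), inguinal DPP4_pos (purple squares) and gonadal APC (green triangles) for 21 named genes, including some too low in a population to be tested there. Sult1e1 and C7 lie together on the M side, Il6 and Cxcl5 lie near or below 0 only in APC, and Dpp4 and Pi16 lie near 0 only in DPP4_pos.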

How the data were processed

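Inguinal DPP4_neg cells were studied with 3 M and 3 F libraries, 13055651 to 17165535 reads each. DESeq2 1.6.3, featureCounts 1.4.6, HISAT2 2.0.1 and Trim Galore 0.4.1 are listed, per the submitters' processing notes, with the build GRCm38 (mm10). Roles, annotation and strand setting are not given in the sources used here. What was deposited is a normalized signal per gene. Read from the values themselves, each is a whole number of reads over a factor fixed per library, since 100.0% in each library were whole multiples of 1 step within 0.01 read, and reads were recovered this way.

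Values were tested on log2(value + 1), which understates the change of low genes, with limma 3.58.1 in R 4.3.3 (mean-variance trend). All 13565 genes that reached 10 or more in 3 or more of the 6 libraries were fitted and adjusted together (Benjamini-Hochberg, threshold 0.05), sex-linked and unplaced genes included. Genes were placed with RefSeq GRCm38.p6 by identifier, and 25275 (93.0%) matched. Differences between populations were fitted over 12 libraries. Errors of fold changes are SE. Genes without a symbol held at most 0.0765% of reads.

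The text names the 14 highest and 14 lowest called genes without overlap and with a higher-group mean of 100 or more (epithelial list members and clone names left out), up to 4 called members of each of 38 lists, 5 genes each way per difference between populations, and genes said to be chosen later. The 5 genes each way had the same exclusions and a mean of 100 or more in at least 1 group compared. Some that qualify are not printed, and some genes are not reported here. Members and lists were chosen with earlier results of these data known. Alternatives were another pseudocount, no filter, quantile normalisation, all 24 libraries, the replicate number as a block, each library left out, edgeR 4.0.16 and DESeq2 1.42.0 on recovered reads, and, chosen after seeing the data, equal library totals.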

Additional observations from a re-analysis of the deposited data

Results flagged for a closer look

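These genes had the largest tested differences between the M minus F contrast of DPP4_neg and that of another population, 5 in each direction (limma, 12 libraries, Benjamini-Hochberg adjustment, n = 3 per group). Against DPP4_pos the difference lay above for Npy1r at 3.86 ± 0.34 SE, adjusted p = 1.68e-06, a neuropeptide Y receptor gene with 75.1, 69.4 and 106 in M_DPP4_neg and 179.6, 139 and 144 in F_DPP4_neg, and 4.52, 5.77 and 8.81 in M_DPP4_pos and 168, 164 and 255 in F_DPP4_pos. Spon1, a spondin gene, followed at 3.74 ± 0.25 SE, adjusted p = 1.51e-07. Both were lower in M in both populations, and more so in DPP4_pos. The neutrophil gene S100a9 (3.68 ± 1.08 SE, adjusted p = 0.0217) and Ltf (3.68 ± 0.63 SE, adjusted p = 0.000603) were above as well, with values at or near 0 in M_DPP4_pos. Ltf ranked the F_DPP4_neg libraries 2, 3, 1, as Epcam did, and which cells make it was not tested. The S100a9 call ended without M_DPP4_neg library 1 or 3, F_DPP4_neg library 2, M_DPP4_pos library 2 or F_DPP4_pos library 1, with adjusted p between 0.0507 and 0.0605. Ubd, a ubiquitin-like gene induced by cytokines, had 3.61 ± 0.55 SE, adjusted p = 0.000224.

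Below DPP4_pos lay Gipc2 (-6.51 ± 0.91 SE, adjusted p = 0.000114), Ido1 (-6.06 ± 0.65 SE, adjusted p = 1.21e-05), Nxph3 (-5.86 ± 0.67 SE, adjusted p = 1.94e-05), Plet1 (-5.72 ± 0.26 SE, adjusted p = 8.71e-09) and Ocln (-5.50 ± 0.88 SE, adjusted p = 0.000358). Plet1 had 8.12, 11.2 and 9.86 in M_DPP4_neg and 279.7, 494 and 372 in F_DPP4_neg, and 123, 123 and 123 in M_DPP4_pos and 78.0, 81.0 and 85.1 in F_DPP4_pos, so the M libraries lay above the F libraries in DPP4_pos. Gipc2, Nxph3, Plet1 and Ocln ranked the F_DPP4_neg libraries 2, 3, 1, as Epcam did, and Ido1 ranked them 2, 1, 3.

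Against gonadal APC the difference lay above for Hoxa11 (6.90 ± 0.73 SE, adjusted p = 2.14e-06), Hoxa11os (6.62 ± 0.68 SE, adjusted p = 1.56e-06), Hoxc10 (6.36 ± 0.34 SE, adjusted p = 1.53e-09), Nrn1 (6.17 ± 0.73 SE, adjusted p = 6.88e-06) and Cxcl13 (5.85 ± 0.24 SE, adjusted p = 1.38e-10). Hoxa11 and its antisense gene Hoxa11os were at or near 0 in every DPP4_neg library and at 109.9 to 158 in F_APC, and without a stated strand setting their reads cannot be told apart. Hoxc10 had 428, 405 and 430.3 in M_DPP4_neg and 214, 177 and 244 in F_DPP4_neg, and 7.51, 10.4 and 3.39 in M_APC and 318, 290.1 and 315 in F_APC. Below APC lay Dmbt1 (-10.95 ± 0.78 SE, adjusted p = 2.76e-08), Gria1 (-10.28 ± 0.40 SE, adjusted p = 8.57e-11), Enpp6 (-8.97 ± 0.51 SE, adjusted p = 2.79e-09), Nxph3 (-8.94 ± 0.62 SE, adjusted p = 2.22e-08) and Fgb (-8.45 ± 0.81 SE, adjusted p = 6.94e-07). Gria1, a glutamate receptor gene, had 2.03, 3.06 and 3.70 in M_DPP4_neg and 232, 398 and 274 in F_DPP4_neg, and 94.4, 76.5 and 74.7 in M_APC and 3.96, 5.95 and 2.77 in F_APC, and Enpp6, a choline phosphodiesterase gene, had 1.01, 3.06 and 7.40 in M_DPP4_neg and 90.6, 126 and 121 in F_DPP4_neg, and 340.2, 325 and 311 in M_APC and 12.9, 19.0 and 19.4 in F_APC, so both were higher in F in DPP4_neg and higher in M in APC.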

How the results depend on the processing

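Of 2935 recomputed values for 204 named genes and differences, none reversed, 55 lost their call and 4 gained one. Equal library totals, chosen after seeing the data, moved the counts: 1717 genes were higher in M and 5681 higher in F in DPP4_neg, 2940 lay below DPP4_pos, and 1209 lay above and 6061 below APC. The other alternatives kept the main counts within 1.5 times. Leaving out 1 library gave 2457 to 3137 genes higher in M and 2565 to 3342 higher in F. edgeR called 3079 and 3074 and DESeq2 2970 and 2807. With 1 library left out, 1076 to 1469 genes lay above and 1451 to 2010 below DPP4_pos, and 2129 to 2591 lay above and 2264 to 2744 below APC. Same-numbered M and F libraries deviated together only weakly (r of 0.09, 0.15 and 0.08 for numbers 1, 2 and 3), not above 0.1 in every pair, although each library correlated best with its own number. A fit with the replicate number as a block called 3031 genes higher in M and 3260 higher in F and changed no named call. The count tests were not run for the differences between populations. Calls of named genes that ended under an alternative were, besides those given above, those of Dcn, Erg, Aurka, Ndufa8, Uqcrc2, Adrb3, Ncoa3, Pglyrp1, Ngp and Camp. With 3 libraries per group and 13055651 to 17165535 reads, low genes limit precision: a gene at 0 reads in M is bounded only by 3 reads over the group.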
